A study of Bos taurus with 12 samples.

Results

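Most SLC25A proteins are carriers of the inner mitochondrial membrane, and most SLC35 proteins are carriers of the Golgi apparatus and the endoplasmic reticulum. Both families were described here in endometrium of Simmental heifers through every probe set whose chip annotation names a gene of SLC25A, or of SLC35 followed by a letter. The rule found 64 probe sets of 43 genes among the 24016 probe sets that are not controls. Of these, 39 probe sets belong to 27 SLC25A genes and 25 to 16 SLC35 genes. Where a gene has several, they are numbered here by the order of their identifiers on the chip (set 1, set 2 and so on), and each was kept apart.

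Mitochondrial carriers pass ADP and ATP, phosphate, citrate, amino acids, acylcarnitines and other small molecules between the cytosol and the matrix. Several SLC35 proteins bring activated sugars such as UDP-galactose or CMP-sialic acid into the lumen of the Golgi, where glycosyltransferases build the sugar chains of secreted and membrane proteins. The uterine epithelium secretes much of the fluid in which the early embryo lives, and its surface is rich in such sugar chains.

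Each of the 12 arrays (GeneChip Bovine Genome Array) held 1 pool of RNA from 5 endometrial biopsies taken with a cytobrush during the estrous cycle before embryo transfer. The heifers later received a blastocyst produced in vitro and were sorted by the outcome, so that high receptivity (HR) stands for pregnant animals and low receptivity (LR) for those in which no embryo was found. HR3 and HR7 are the HR pools of days 3 and 7 of the cycle, LR3 and LR7 the LR pools, with 3 pools in each group and no treatment that sets the groups apart. All animals were synchronized. The methods describe biopsies on both days in a longitudinal study, without naming the heifers in each pool, so that pools were not paired between the days.

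Signals (PLIER) were on the log2 scale, where a difference of 1 is a doubling. A difference was tested in limma where a probe set had a standard deviation of at least 0.2 over the 12 arrays and lay above the array median (6.63 to 6.77) on every array of at least 1 group. This held for 7339 probe sets in all. "Called" stands for an adjusted p under 0.05 (Benjamini-Hochberg over these 7339), and the p-values measure the spread between pools. Of 10 uterine epithelial markers, 9 were not under the array median on all arrays. The same held for all 10 stromal and all 6 T and NK cell markers, so that this low bar does not set the tissue apart.

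Of the carriers, 24 probe sets of 21 genes passed both limits, 18 of them SLC25A and 6 SLC35. A further 18 were bright but varied by less than the limit, 20 lay too low and 2 failed both limits. Through this limit, steady carriers are missing from the tested set. Among the 18 tested SLC25A probe sets, 3 (SLC25A20 set 2, SLC25A33 set 2 and SLC25A48) lay below the array median in some group. They entered through the groups in which they were high. Without the limit on the standard deviation, 42 carrier probe sets were tested, and values for the bright, steady ones were taken from that fit. No probe set matched SLC25A13 or SLC35D1, and 11 genes were represented by dim probe sets alone.

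The largest contrast in both families was the day of the cycle. In HR, 9 of 18 SLC25A probe sets were called between day 3 and day 7, 5 higher and 4 lower at day 7, and 3 of 6 SLC35 probe sets, all 3 higher. Over all 7339 probe sets 41.5% were called, 20.7% higher and 20.8% lower, so that a called share of 50% in each family was near the background. The median log2 difference was 0.15 for SLC25A and 0.39 for SLC35, beside -0.06 over all tested probe sets. The SLC25A count fell to 5 without pool 1 of HR3 and to 4 without pool 2 of HR7, and to 4 without the limit on low signal.

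In LR, 13 of 18 SLC25A probe sets were called, 8 higher and 5 lower at day 7, and again 3 of 6 SLC35 probe sets, all higher. The background was 44.7%, with 22.7% higher and 22% lower. The SLC25A share of 72.2% lay above the background and the SLC35 share of 50% near it. The 13 called SLC25A probe sets belong to 10 genes. They include SLC25A20 set 2, SLC25A33 set 2 and SLC25A48, which entered through the groups in which they were high. The SLC25A share is therefore a description. Median log2 differences were 0.15 for SLC25A, 0.42 for SLC35 and -0.10 over all probe sets. The LR counts moved with 1 technical measure. The 5' minus 3' log2 signal of the spiked-in control dap was -3.13 to -2.66 in LR3 and -1.88 to -1.47 in LR7, without overlap, and with it as a covariate 0 carriers and 320 of 7339 probe sets (4.36%) were called in LR. The difference of SLC25A48 then shrank from -1.81 to -0.58 and that of SLC25A5 set 1 from 1.03 to 0.53, whereas SLC25A29 stood at 1.08 and SLC35A2 at 0.50, and the part of this measure in the LR results was not tested further. In HR, where it ranged from -2.74 to -1.32 in HR3 and from -2.30 to -1.77 in HR7, 11 carriers were then called in place of 12. Another spiked-in control, phe, was apart between the days in HR (-0.53 to -0.46 in HR3 and -0.80 to -0.57 in HR7), and its part in the HR results was not tested.

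**Figure D1:**
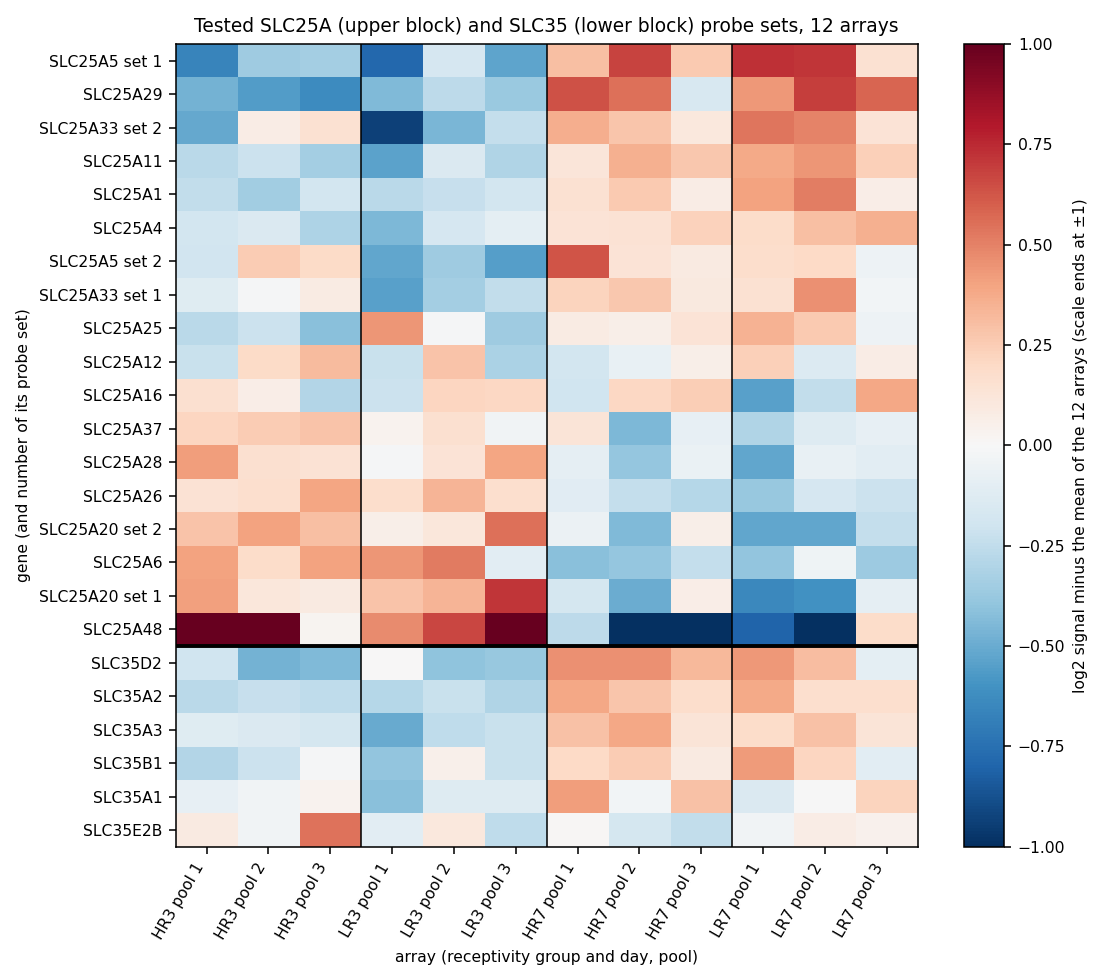
Heat map of the 24 tested carrier probe sets (rows, SLC25A above the thick line, SLC35 below) in the 12 pools (columns), coloured by log2 signal minus the mean of the probe set over the 12 pools, with the colour scale ending at ±1. Rows are ordered by their change with the day, and most upper rows of each block turn from blue at day 3 to red at day 7 in both receptivity groups.

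The tested probe sets of the ADP/ATP carriers, which exchange the ATP made in the matrix for cytosolic ADP, were not alike in direction. SLC25A5 (set 1) had signals of 9.99, 10.29 and 10.31 in HR3 and 10.95, 11.32 and 10.91 in HR7. In LR3 they were 9.86, 10.48 and 10.12, and in LR7 11.38, 11.36 and 10.80. All 6 pools of day 7 lay above all 6 pools of day 3. The log2 difference was 0.86 ± 0.21 (standard error) in HR, 1.82-fold (adjusted p = 0.00753), and 1.03 ± 0.21 in LR, 2.04-fold (adjusted p = 0.00319).

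SLC25A5 set 2 had 12.38, 12.83 and 12.76 in HR3 and 13.20, 12.71 and 12.66 in HR7. Its LR3 pools read 12.05, 12.22 and 12.02, and its LR7 pools 12.75, 12.77 and 12.52. The days overlapped in HR, whereas LR3 lay below every other pool. Its difference was 0.58 ± 0.17 in LR (adjusted p = 0.0199) and 0.20 ± 0.17 in HR (adjusted p = 0.355). The LR call was lost without pool 1 of LR3, pool 1 of LR7 or pool 2 of LR7 (adjusted p up to 0.0623). Both probe sets of SLC25A5 thus pointed upward, and they differed in how far.

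SLC25A4, the ADP/ATP carrier best known from heart and muscle, had 9.26, 9.30 and 9.14 in HR3 and 9.58, 9.59 and 9.68 in HR7. The LR values were 9.0, 9.28 and 9.35 at day 3 and 9.63, 9.75 and 9.80 at day 7. Again all day 7 pools lay above all day 3 pools. The difference was 0.38 ± 0.13 in HR (adjusted p = 0.0324) and 0.52 ± 0.13 in LR (adjusted p = 0.00904). In HR the call was lost whenever any 1 of the 6 HR pools was left out, with differences from 0.34 to 0.42 and an adjusted p of up to 0.0982.

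The tested probe set of SLC25A6, set 3, went the other way. It read 11.44, 11.22 and 11.44 in HR3 and 10.62, 10.65 and 10.80 in HR7. In LR the values were 11.48, 11.56 and 10.93 at day 3 and 10.64, 10.99 and 10.67 at day 7. Day 3 lay above day 7 in HR, while in LR pool 3 of day 3 was below pool 2 of day 7. The log2 difference was -0.68 ± 0.18 in HR, 1.6-fold lower (adjusted p = 0.0109), and -0.56 ± 0.18 in LR (adjusted p = 0.0243). In LR it lost its call without pool 1 or 2 of LR3 or without pool 1 or 3 of LR7 (adjusted p up to 0.0853).

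A fall of SLC25A6 holds for this probe set alone. Its other bright probe sets had a standard deviation under the limit. Set 2 differed by 0.17 ± 0.12 in HR (adjusted p = 0.304) and rose by 0.38 ± 0.12 in LR (adjusted p = 0.0309, without the limit on the standard deviation). Its LR3 pools had 11.99, 12.15 and 12.04, and its LR7 pools had 12.37, 12.41 and 12.55. Set 1 differed by 0.13 in HR and by -0.01 in LR. The chip therefore gives SLC25A6 no single direction. SLC25A3, which brings phosphate into the matrix for ATP synthesis, was bright and steady, with 11.41 to 12.06 over all pools. Its difference was 0.15 ± 0.14 in HR and 0.28 ± 0.14 in LR, with 95% intervals of -0.14 to 0.45 and of -0.01 to 0.58.

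**Figure D2:**
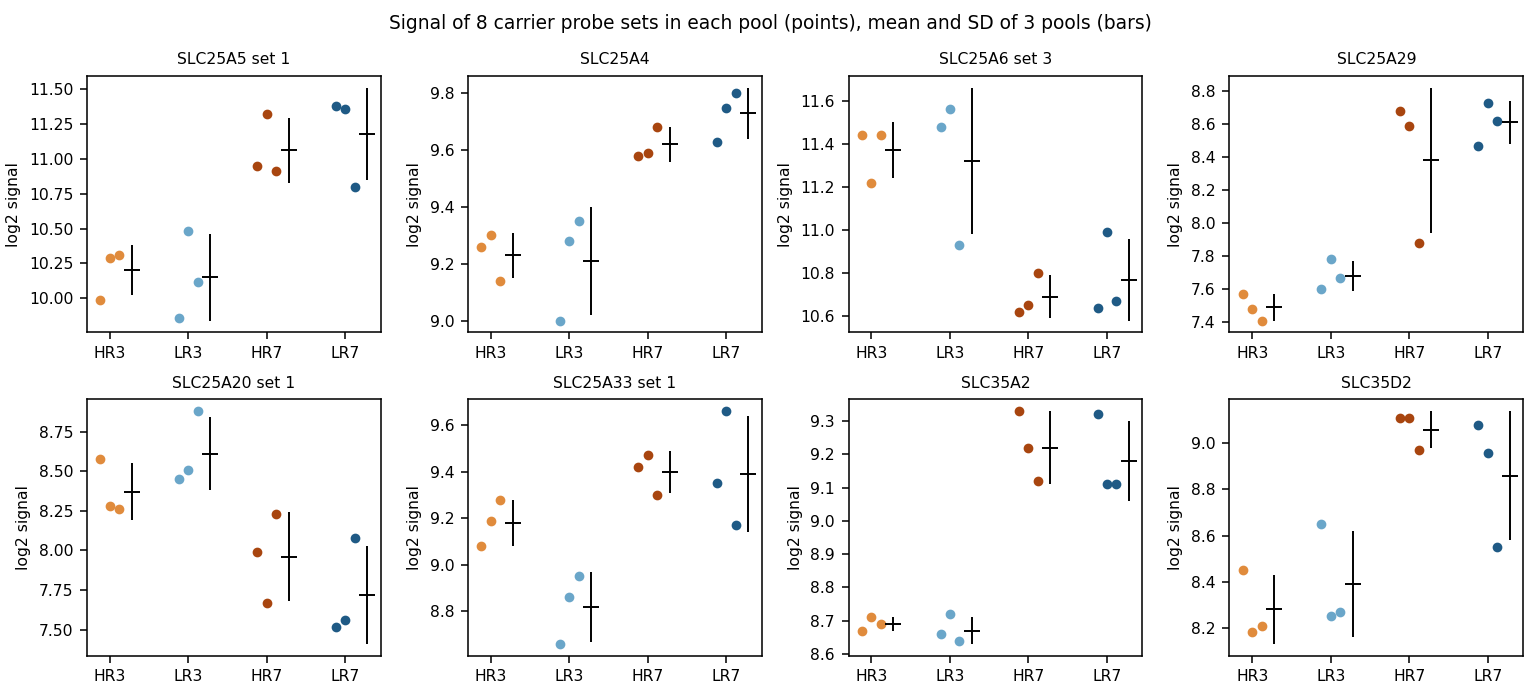
Log2 signal of 8 carrier probe sets in each pool (points, 3 pools in each group), with the mean and standard deviation of the 3 pools as a bar at the right of each group. SLC25A5 set 1, SLC25A4, SLC25A29 and SLC35A2 set 2 are higher in every day 7 pool than in any day 3 pool, SLC25A20 set 1 runs the other way, and SLC25A6 set 3 is lower at day 7 with days that overlap in LR. The vertical axes differ in range and do not start at 0.

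SLC25A1 and SLC25A11, which link the citric acid cycle with the cytosol, rose by day 7, and SLC25A12 was not called. SLC25A1 exports citrate, the source of cytosolic acetyl-CoA for lipid synthesis. Its signals were 9.35, 9.25 and 9.41 in HR3 and 9.75, 9.86 and 9.67 in HR7. LR3 had 9.33, 9.37 and 9.41, and LR7 had 10.00, 10.11 and 9.66. The days did not overlap in either group. The difference was 0.42 ± 0.14 in HR (adjusted p = 0.0282) and 0.55 ± 0.14 in LR (adjusted p = 0.00884). The HR call was lost without pool 1 or 2 of HR3 and without pool 1 or 2 of HR7 (adjusted p up to 0.0968).

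SLC25A11 (set 1), the oxoglutarate and malate carrier of the malate-aspartate shuttle, had 8.47, 8.52 and 8.40 in HR3 and 8.86, 9.09 and 9.01 in HR7. In LR it went from 8.20, 8.59 and 8.44 to 9.12, 9.18 and 8.98. Every pool of day 7 exceeded every pool of day 3. The difference was 0.52 ± 0.13 in HR, 1.44-fold (adjusted p = 0.0106), and 0.68 ± 0.13 in LR, 1.61-fold (adjusted p = 0.0029). Both calls remained when any 1 pool was left out. Set 2 of SLC25A11, too low to be tested, differed by 0.24 in HR and 0.05 in LR in the fit without either limit. SLC25A12, the aspartate/glutamate carrier of the same shuttle, differed by -0.16 ± 0.19 in HR and by 0.14 ± 0.19 in LR in set 2 and was not called. Its set 1, with a standard deviation under the limit, differed by 0.03 in HR and 0.18 in LR. Its set 3, too low to be tested, differed by -0.46 in HR and -0.54 in LR in the fit without either limit.

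SLC25A20, which brings acylcarnitines into the matrix for fatty acid oxidation, was lower at day 7. Set 1 had 8.58, 8.28 and 8.26 in HR3 and 7.99, 7.67 and 8.23 in HR7. In LR3 it had 8.45, 8.51 and 8.88, and in LR7 7.52, 7.56 and 8.08. Day 3 lay above day 7 in both groups, in HR by a narrow gap (8.26 against 8.23). The log2 difference was -0.89 ± 0.20 in LR, 1.86-fold lower (adjusted p = 0.00538), and -0.41 ± 0.20 in HR (adjusted p = 0.111).

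SLC25A20 set 2 lay near the array median, with 6.96, 7.08 and 6.98 in HR3 and 6.62, 6.24 and 6.74 in HR7. Its LR3 pools read 6.74, 6.79 and 7.23, and its LR7 pools 6.16, 6.16 and 6.44. The days did not overlap in either group, and all LR7 pools were below the array median. It passed the limit on low signal through day 3 pools alone, so that its differences are a description. It differed by -0.47 ± 0.17 in HR (adjusted p = 0.0443) and by -0.67 ± 0.17 in LR (adjusted p = 0.0107). The HR call stood close to the threshold and was lost without any 1 of the HR3 pools, pool 1 or 2 of HR7, or pool 1 or 2 of LR7 (adjusted p up to 0.177).

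SLC25A29, the mitochondrial carrier of basic amino acids such as arginine and lysine, rose in both groups. HR3 had 7.57, 7.48 and 7.41, and HR7 had 8.68, 8.59 and 7.88. LR3 had 7.60, 7.78 and 7.67, and LR7 had 8.47, 8.73 and 8.62. Pool 3 of HR7 stood lower than the other day 7 pools, though still above all of day 3. The difference was 0.90 ± 0.19 in HR, 1.86-fold (adjusted p = 0.00401), and 0.92 ± 0.19 in LR, 1.90-fold (adjusted p = 0.00343). Leaving out 1 pool gave 0.75 to 1.15 in HR and 0.86 to 0.99 in LR, and it was called each time.

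SLC25A33 carries pyrimidine nucleotides into mitochondria. Its set 1 had 9.08, 9.19 and 9.28 in HR3 and 9.42, 9.47 and 9.30 in HR7. The LR3 values were 8.66, 8.86 and 8.95 and the LR7 values 9.35, 9.66 and 9.17. LR3 was the lowest group, below every pool of HR3. The difference was 0.57 ± 0.15 in LR (adjusted p = 0.011) and 0.21 ± 0.15 in HR (adjusted p = 0.251).

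Set 2 of the same gene had 6.71, 7.30 and 7.38 in HR3 and 7.59, 7.50 and 7.33 in HR7. It read 6.29, 6.77 and 6.99 in LR3 and 7.76, 7.72 and 7.36 in LR7. The days overlapped in HR and were apart in LR. In LR3, pool 1 (6.29) lay below its array median. The probe set passed the limit on low signal through groups in which it was higher, so that its LR difference is a description. Its difference was 0.93 ± 0.22 in LR, 1.91-fold (adjusted p = 0.00657), and 0.34 ± 0.22 in HR (adjusted p = 0.208). With the dap signal as a covariate both LR differences of SLC25A33 fell to 0.35 (adjusted p = 0.331 and 0.419).

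SLC25A26 imports S-adenosylmethionine, the methyl donor for mitochondrial RNA, DNA and proteins. Its set 1 had 8.47, 8.49 and 8.72 in HR3 and 8.21, 8.08 and 8.04 in HR7. LR3 had 8.50, 8.66 and 8.49, and LR7 had 7.94, 8.15 and 8.11. All day 3 pools lay above all day 7 pools. The difference was -0.45 ± 0.13 in HR (adjusted p = 0.0162, up to 0.0639 without pool 3 of HR3, pool 2 of HR7 or pool 3 of HR7) and -0.48 ± 0.13 in LR (adjusted p = 0.0117). Set 2, with a standard deviation under the limit, fell by 0.31 in HR (adjusted p = 0.0435, without the limit on the standard deviation) and differed by -0.12 in LR.

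The widest difference among the tested carriers was that of SLC25A48, linked in human to choline transport into mitochondria. HR3 had 7.83, 7.68 and 6.33, and HR7 had 6.04, 4.25 and 5.06. LR3 had 6.77, 6.97 and 8.18, and LR7 had 5.50, 4.50 and 6.48. The days did not overlap within either group, while pools of 1 group lay far apart, with a standard deviation of 0.76 to 0.99. Every day 7 pool lay below its array median, where signal is least certain, and the probe set passed the limit on low signal through LR3 alone, so that its difference is a description. The log2 difference was -2.16 ± 0.59 in HR (adjusted p = 0.0136) and -1.81 ± 0.59 in LR (adjusted p = 0.0273). Both calls were lost without the limit on low signal (adjusted p = 0.0502 in HR and 0.0835 in LR) and without both limits (0.0582 and 0.0974). They were also lost without pool 1 of HR3 or pool 2 of HR7 in HR (adjusted p up to 0.0594) and without pool 3 of LR3 or pool 1 or 2 of LR7 in LR (up to 0.103).

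Both mitoferrins, which import iron for heme and iron-sulfur clusters, had lower values at day 7 without passing the test as run here. SLC25A28 had 9.73, 9.47 and 9.46 in HR3, 9.22, 8.93 and 9.25 in HR7, 9.30, 9.45 and 9.71 in LR3 and 8.79, 9.24 and 9.21 in LR7. Its day 3 pools lay above its day 7 pools in each group. It differed by -0.42 ± 0.17 in HR (adjusted p = 0.0627) and -0.41 ± 0.17 in LR (adjusted p = 0.0667). SLC25A37 differed by -0.38 ± 0.15 in HR (adjusted p = 0.0613) and by -0.22 ± 0.15 in LR (adjusted p = 0.237). In HR, SLC25A37 was called without pool 1 of HR7 (adjusted p = 0.0318) and SLC25A28 without pool 1 of LR7 (adjusted p = 0.0488) and with the compared groups alone (0.0458). After quantile normalization SLC25A28 was called in HR (adjusted p = 0.0447) and LR (0.0483) and SLC25A37 in HR (0.0478). Of the remaining tested SLC25A probe sets, SLC25A25, a calcium-regulated carrier of ATP-Mg and phosphate, differed by 0.39 in HR and 0.16 in LR. SLC25A16, linked to coenzyme A transport, differed by 0.11 in HR and -0.20 in LR, and neither was called.

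Among the nucleotide sugar carriers, SLC35A2 (set 2), SLC35A3 and SLC35D2 rose in both groups. SLC35A2 carries UDP-galactose. The signals of its set 2 were 8.67, 8.71 and 8.69 in HR3 and 9.33, 9.22 and 9.12 in HR7. LR3 had 8.66, 8.72 and 8.64, and LR7 had 9.32, 9.11 and 9.11. The 6 pools of day 3 lay between 8.64 and 8.72, below all those of day 7. The difference was 0.53 ± 0.12 in HR, 1.45-fold (adjusted p = 0.00523), and 0.51 ± 0.12 in LR, 1.42-fold (adjusted p = 0.00656), and each call remained when any 1 pool was left out. Set 1 lay too low to be tested. It differed by 0.38 in HR (95% interval 0.04 to 0.72) and by 0.05 in LR (-0.29 to 0.39) in the fit without either limit.

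SLC35A3 carries UDP-N-acetylglucosamine, used to branch N-glycans. HR3 had 8.17, 8.15 and 8.12, and HR7 had 8.59, 8.68 and 8.42. LR3 had 7.79, 8.04 and 8.07, and LR7 had 8.48, 8.59 and 8.42. Day 7 was above day 3 in every pool. The difference was 0.42 ± 0.13 in HR (adjusted p = 0.0226) and 0.53 ± 0.13 in LR (adjusted p = 0.00771). The HR call was lost without pool 2 or 3 of HR3 and without pool 1 or 2 of HR7 (adjusted p up to 0.0868).

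SLC35D2, a further nucleotide sugar carrier that takes UDP-N-acetylglucosamine in human, had 8.45, 8.18 and 8.21 in HR3 and 9.11, 9.11 and 8.97 in HR7. LR3 had 8.65, 8.25 and 8.27, and LR7 had 9.08, 8.96 and 8.55. The days were apart in HR and overlapped in LR, where pool 3 of day 7 was below pool 1 of day 3. The difference was 0.78 ± 0.17 in HR, 1.72-fold (adjusted p = 0.0044), and 0.47 ± 0.17 in LR (adjusted p = 0.038). In LR the call was lost without pool 2 of HR3, pool 2 or 3 of LR3, or pool 1 or 2 of LR7 (adjusted p up to 0.137).

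SLC35A1, the CMP-sialic acid carrier, was bright in every group, with 11.52, 11.57 and 11.64 in HR3 and 12.02, 11.58 and 11.90 in HR7. Its LR values were 11.19, 11.48 and 11.48 at day 3 and 11.46, 11.60 and 11.83 at day 7. The days overlapped in both groups. It differed by 0.26 ± 0.15 in HR (adjusted p = 0.188, 95% interval -0.08 to 0.59) and by 0.25 ± 0.15 in LR (adjusted p = 0.195, -0.09 to 0.58). SLC35B1, which exchanges ATP and ADP across the membrane of the endoplasmic reticulum, differed by 0.35 ± 0.17 in HR (adjusted p = 0.0989) and 0.37 ± 0.17 in LR (adjusted p = 0.0824, called without pool 2 of LR3 or pool 3 of LR7, down to 0.0299). SLC35E2B (set 2), whose cargo is not known, differed by -0.34 in HR and 0.11 in LR and was not called. Its set 1, with a standard deviation under the limit, differed by -0.27 in HR and 0.03 in LR.

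Carriers of sulfate and fucose donors were steady. SLC35B2 brings PAPS, the sulfate donor, into the Golgi, and its signals lay between 8.72 and 9.10 in all pools. It differed by -0.16 ± 0.10 in HR (95% interval -0.38 to 0.05) and by -0.12 ± 0.10 in LR (-0.33 to 0.10). SLC35C1, the GDP-fucose carrier, differed by 0.11 ± 0.16 in HR (-0.24 to 0.46) and by -0.13 ± 0.16 in LR (-0.48 to 0.22) in set 2. Without the limit on the standard deviation, 13 of 42 carrier probe sets were called in HR (26.4% of all) and 17 of 42 in LR (28% of all), and the 3 called SLC35 probe sets in each group were again the only ones of 15.

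Most changes with the day ran in the same direction in HR and LR. Of the 24 tested carriers, 12 were called in both groups, 4 in LR alone (SLC25A20 set 1, both probe sets of SLC25A33 and SLC25A5 set 2) and 0 in HR alone. The sign was the same for 21 of 24 probe sets (87.5%), beside 89.4% over all tested probe sets. Pearson's r between both differences was 0.92 across the 24 carriers and 0.90 across all probe sets, which are not independent of each other. Both groups' pools are separate arrays, and a shared technical difference between the days would enter both. Carriers whose days did not overlap numbered 11 higher and 7 lower in HR (29% and 31.2% of all) and 10 higher and 6 lower in LR (25.4% and 25.9%).

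The interaction of receptivity and day called 0 of the 24 carriers, with 0 at an unadjusted p under 0.05 (0% and 3.9% of all probe sets). The lowest unadjusted p were 0.0767 for SLC35E2B (-0.45 ± 0.23, HR minus LR) and 0.0798 for SLC25A33 set 2 (-0.59 ± 0.31). The 4 probe sets called in LR alone are therefore not shown to change differently in HR. All 24 of the 95% intervals of the interaction held 0, and the widest, that of SLC25A48, ran from -2.16 to 1.46.

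**Figure D3:**
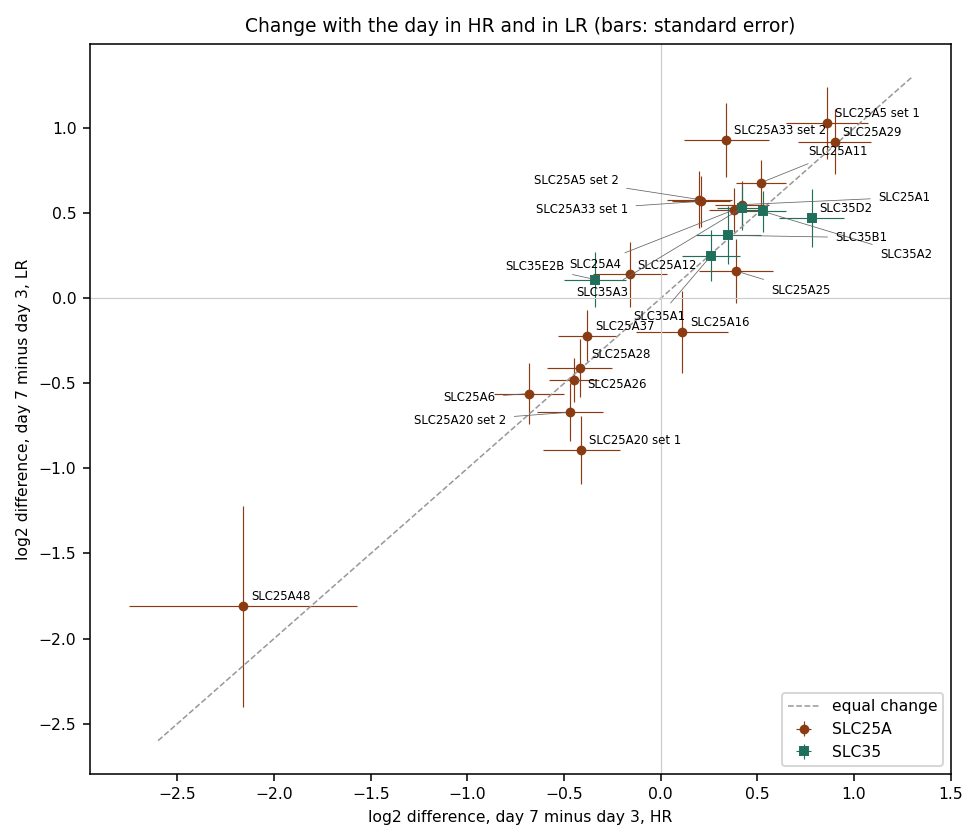
Log2 difference between day 7 and day 3 in HR (horizontal) against LR (vertical) for the 24 tested carriers, circles for SLC25A and squares for SLC35, with standard errors as bars and a dashed line of equal change. The points follow the line, 21 of 24 with the same sign in both groups, and SLC25A33 and SLC25A5 set 2 stand above it.

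In every called probe set 1 of the 3 pools of day 7 must be the nearest to day 3, and among the carriers this was often pool 3. Pool 3 of LR7 was the nearest to the LR3 mean in 11 of the 16 carriers called in LR (68.8%), and it was the nearest in 51.9% of all 3280 probe sets called there. Pool 3 of HR7 was the nearest in 8 of 12 called carriers (66.7%), beside 44.4% of the 3045 probe sets called in HR. Examples were SLC25A5 set 1 and SLC35D2 in both groups, SLC25A29 in HR and SLC25A33 in LR. For SLC25A5 set 1 in HR the gap to the next pool was small (10.91 against 10.95).

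Between HR and LR no carrier passed the adjusted test. At day 3, 0 of 24 were called between HR and LR (0% of all probe sets), with 2 at an unadjusted p under 0.05 (7.06% of all probe sets). These were SLC25A5 set 2, higher in HR by 0.56 ± 0.17 (unadjusted p = 0.00752, adjusted p = 0.668), and SLC25A33 set 1, higher by 0.36 ± 0.15 (unadjusted p = 0.0318, adjusted p = 0.668). In both, all HR3 pools lay above all LR3 pools, as the values above show. The groups were also apart for SLC25A37, SLC35A1 and SLC35A3 (higher in HR) and for SLC25A29 (lower in HR), which makes 5 of 24 higher (20.8%) and 1 of 24 lower (4.17%), against 5.64% and 5.01% of all probe sets. The values behind them were small, with differences of 0.20 ± 0.15 for SLC25A37, 0.19 ± 0.15 for SLC35A1, 0.18 ± 0.13 for SLC35A3 and -0.20 ± 0.19 for SLC25A29. Among those of the 24 with lower values in HR, SLC25A25 had the lowest p of SLC25A (-0.33 ± 0.19, unadjusted p = 0.104), followed by SLC25A20 set 1 (-0.24 ± 0.20). SLC35D2 was the only SLC35 probe set among them (-0.11 ± 0.17). SLC35E2B had the lowest p of SLC35 within the 24 (0.29 ± 0.16, unadjusted p = 0.107). Without the limit on the standard deviation, 0 of 42 carriers were called at day 3. Of the bright, steady ones, SLC25A26 set 2 (0.30) and SLC25A6 set 2 (0.18) were apart and higher in HR. SLC35F5 (-0.28) and SLC35F6 (-0.25) were apart and lower, so that the lean to HR holds for the 24 alone.

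At day 7, 0 of 24 carriers were called between HR and LR, where 5 of 7339 probe sets (0.0681%) were, all higher in HR. None of the 24 reached an unadjusted p under 0.05 (4.51% of all), and 0 of them had groups that did not overlap, in either direction (4.93% and 4.01% of all). Of the bright, steady carriers, SLC25A44 was apart and higher in HR (0.09) and SLC35B2 apart and lower (-0.17), neither called. Among the 24, the lowest unadjusted p was 0.13, for SLC25A20 set 2, with 0.28 ± 0.17. Its other probe set differed by 0.24 ± 0.20, and SLC25A1 and SLC25A29 by -0.16 ± 0.14 and -0.22 ± 0.19. Within SLC35 the values were 0.20 for SLC35A1, 0.20 for SLC35D2 and -0.16 for SLC35E2B. The 95% intervals of the 6 SLC35 probe sets stayed between -0.52 and 0.57, which bounds a difference at day 7 without showing that HR and LR were alike. Those of SLC25A ran from -1.66 to 0.91, both ends set by SLC25A48.

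**Figure D4:**
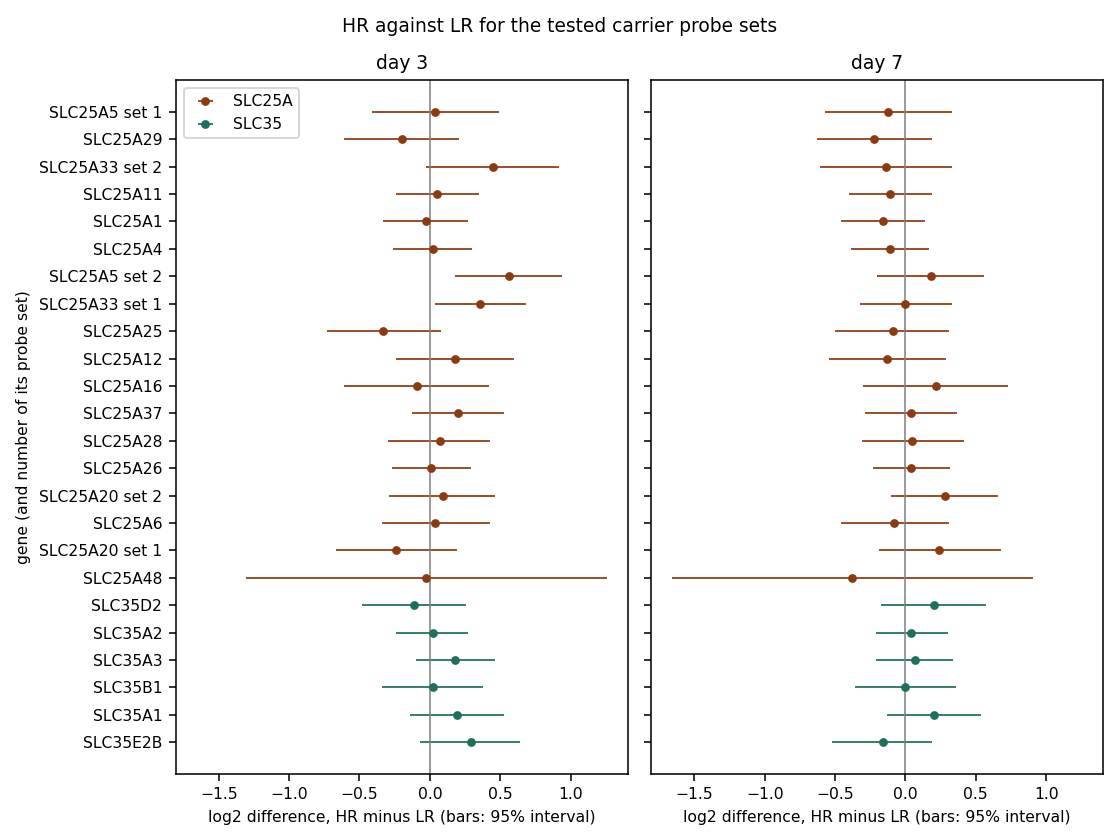
Log2 difference between HR and LR at day 3 (left) and day 7 (right) for the 24 tested carriers, with 95% intervals from limma as bars, SLC25A in brown and SLC35 in green. At day 3 the intervals of SLC25A5 set 2 and SLC25A33 set 1 leave out 0 before adjustment, and at day 7 all 24 intervals hold 0.

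Genes that work beside the carriers were counted as lists, with the 41.5% (HR) and 44.7% (LR) called of all probe sets as background. ATP synthase, which uses the ADP and phosphate that carriers bring in, had 8 of 12 tested probe sets higher at day 7 in each group and none lower. The members with the largest called difference were ATP5MG (0.49), ATP5MF (0.45) and ATP5PF (0.44) in HR and ATP5MC1 (0.72), ATP5F1D (0.47) and ATP5MG (0.43) in LR. The count went down to 2 without pool 3 of HR3 or pool 2 of HR7 in HR, and to 1 without pool 1 of LR7 in LR, and it moved by over 1.5 times in 6 (HR) and 10 (LR) of the 12 fits that left out 1 pool. The channels of the outer membrane, through which metabolites reach the carriers, had 1 of 3 higher in HR (VDAC2, 0.87) and 3 of 3 in LR (VDAC1 1.16 and 0.45, VDAC2 1.12). The 2 tested probe sets for the import of carriers into the inner membrane were not called in either group.

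In the carnitine shuttle and fatty acid oxidation, 4 of 7 probe sets were higher in each group and 0 lower, the opposite direction to SLC25A20. CRAT, carnitine acetyltransferase, rose by 0.73 in HR, ETFA by 0.49 in HR and ACADM, a matrix dehydrogenase of medium-chain fatty acids, by 0.45 in HR and 0.58 in LR. ACAA2 and ECHS1, enzymes of the same cycle, rose by 0.55 and 0.52 in LR. The HR count was 1 without pool 3 of HR3 and moved by over 1.5 times in 5 of 12 leave-outs. Of the 4 probe sets for enzymes around the malate-aspartate shuttle and citrate, CS, citrate synthase, was called in LR (0.48, 0 called without pool 1 of LR3 or pool 1 of LR7) and 0 in HR. Regulators of mitochondrial biogenesis had 1 of 3 lower in HR (PPRC1, -0.51) and 2 of 3 lower in LR (TFB1M, -0.46 and -0.51). The HR count was 0 without pool 2 or 3 of HR3 or of HR7, and the LR count was 0 without pool 2 of HR3, pool 1 or 2 of LR3, or pool 1 or 3 of LR7. In the list for heme and iron-sulfur cluster synthesis, FDX1 was the 1 of 4 called and rose by 0.75 in HR and 0.86 in LR. The median log2 difference of that list was -0.10 in HR and -0.12 in LR.

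Synthesis of nucleotide sugars, which feeds SLC35 carriers, had 5 of 14 probe sets higher in HR and 6 in LR, with 0 lower. Both counts include PAPSS1 (0.54 in HR and 0.82 in LR), which makes the sulfate donor PAPS and no nucleotide sugar. GMPPB, which makes GDP-mannose, rose by 1.15 in HR and 1.13 in LR. GNPNAT1 of the UDP-N-acetylglucosamine pathway rose by 1.02 and 0.86, PGM3 of the same pathway by 0.66 in HR and UAP1, its last enzyme, by 0.91 in LR. The HR count was 3 without pool 1 or 3 of HR3 or without any 1 of the HR7 pools.

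Enzymes that use these sugars moved in both directions. Among sialyltransferases and fucosyltransferases, 5 of 13 were higher and 2 lower in each group. FUT2 and FUT1, which add terminal fucose, rose by 2.85 and by 1.72 and 1.55 (its 2 probe sets) in HR, and by 2.37 and by 1.77 and 2.30 in LR. ST3GAL5, the sialyltransferase that makes ganglioside GM3, had differences of -1.27 and -0.88 in HR and of -1.56 and -0.99 in LR, all called lower. The carriers of their donors, SLC35C1 and SLC35A1, were not called. Among galactosyl and N-acetylglucosaminyl transferases, which use the cargo of SLC35A2 and SLC35A3, 4 of 11 were higher in each group and 0 lower, with C1GALT1, the enzyme of core O-glycans, at 1.67 in HR and 1.15 in LR. Without pool 1 of HR7 the HR count was 2, and without pool 3 of LR7 the LR count was 7. Of 8 probe sets for sulfotransferases and glycosaminoglycan synthesis, 1 was lower in HR (TPST1, -0.50, 0 without pool 1 or 3 of HR3 or pool 1 or 2 of HR7) and 3 in LR (HS6ST1 -0.74, TPST1 -0.52, CHST14 -0.45, with 1 left without pool 2 of LR3). With the dap signal as a covariate the LR counts of these lists were 4 for sialyltransferases and fucosyltransferases, 1 each for nucleotide sugar synthesis and outer membrane channels, and 0 for all others.

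**Figure D5:**
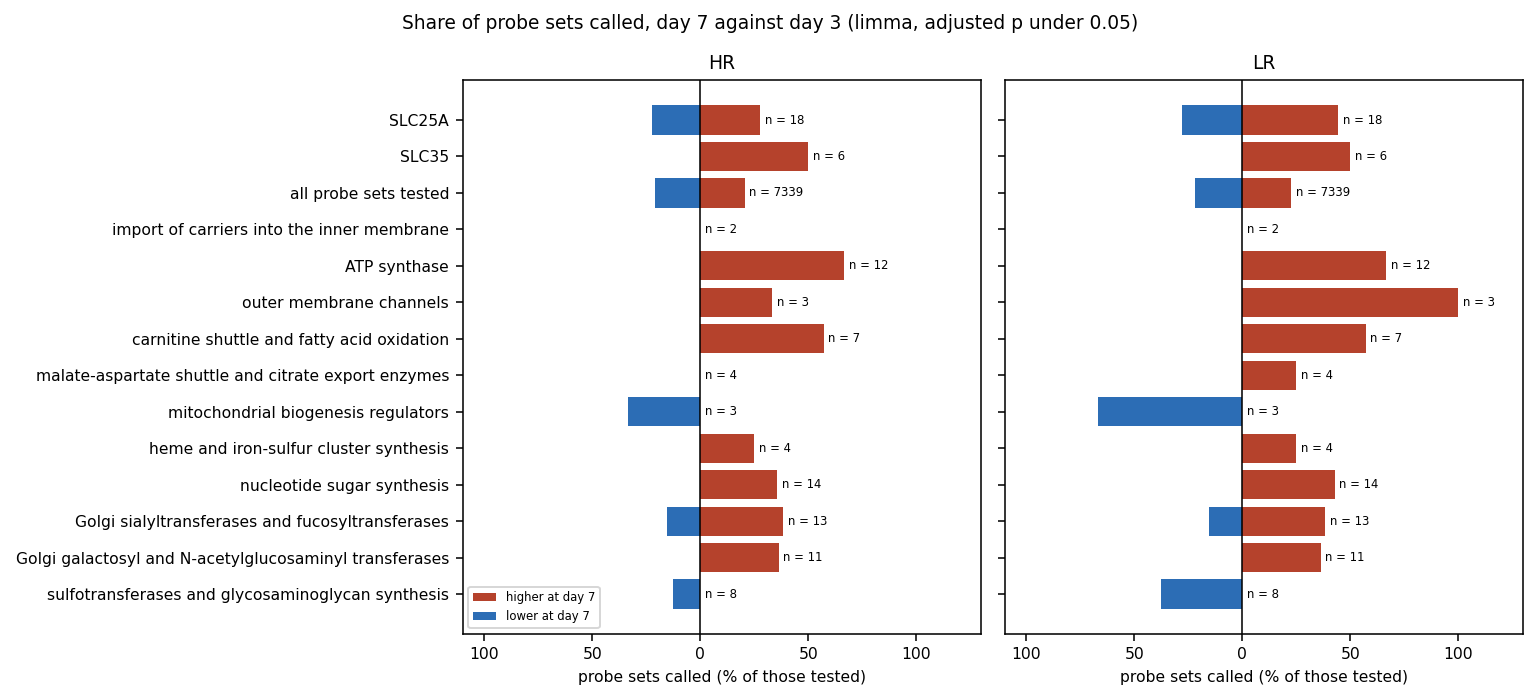
Share of tested probe sets called higher (red, to the right) or lower (blue, to the left) at day 7 than at day 3, in percent, for both carrier families, all 7339 tested probe sets and 11 lists of genes that work beside the carriers, in HR (left) and LR (right), with n as the number tested. SLC35, ATP synthase and nucleotide sugar synthesis have bars to the right alone, and all tested probe sets divide about equally.

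Markers of some other cells moved with the day, too, and in a brush sample fewer cells of a type and less RNA per cell cannot be told apart. Of all tested probe sets, 20.7% (HR) and 22.7% (LR) were called higher at day 7, and 20.8% and 22% lower. Of 5 neutrophil markers listed, 3 are on the array (S100A8, S100A9 and S100A12), without CXCR2 and CSF3R, so that the list rests on S100 genes alone. They were called higher at day 7 in 4 of 4 probe sets in both groups. Their log2 summed level was 8.27 to 8.80 in HR3, 8.80 to 9.88 in LR3, 12.69 to 13.63 in HR7 and 11.78 to 12.50 in LR7. An increase of neutrophils was not tested. Markers of basal or squamous epithelium rose in 4 of 4 probe sets in HR and in 2 of 4 in LR, from 7.90 to 8.59 in HR3 and 7.65 to 8.68 in LR3 to 11.36 to 12.03 in HR7 and 8.92 to 9.30 in LR7. Macrophage markers were called higher in 3 of 5 in both groups (both CD14 probe sets and CD68), while 1 of 5 in HR and 2 of 5 in LR had lower values. Their sums were 9.78 to 9.93 in HR3, 9.31 to 10.22 in LR3, 10.69 to 11.50 in HR7 and 10.44 to 10.86 in LR7. These increases ran beside those of the carriers. A marker probe set could pass the limit on low signal through its day 7 pools alone, so that these counts are a description.

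T and NK cell markers were called lower in 3 of 6 in each group, with sums of 10.06 to 10.30 in HR3, 10.02 to 10.53 in LR3, 9.24 to 9.83 in HR7 and 9.17 to 9.99 in LR7. Stromal markers were called lower in 4 of 12 in HR and 2 of 12 in LR, beside 20.8% and 22% of all tested probe sets. Called or not, 11 of 12 had lower values in HR (median log2 difference -1.29) and 9 of 12 in LR (-0.34). The medians over all tested probe sets were -0.06 and -0.10. The stromal sums overlapped (13.58 to 13.96 in HR3, 11.97 to 13.90 in HR7, 12.59 to 13.67 in LR3, 12.11 to 13.31 in LR7). Ciliated cell markers were lower in 2 of 2 in HR and 0 of 2 in LR, and the 1 tested endothelial probe set was lower in both groups. Of the 2 tested probe sets for B and plasma cells 0 were called in HR and 1 was lower in LR (IGHM, -1.27, adjusted p = 0.0456), with sums of 8.70 to 8.88 in HR3, 8.35 to 8.67 in HR7, 8.90 to 11.23 in LR3 and 8.28 to 9.49 in LR7. Uterine epithelial markers had 1 probe set higher and 1 lower of 7 in each group, and their sums were 14.86 to 15.03 in HR3, 14.82 to 15.08 in HR7, 14.85 to 14.90 in LR3 and 14.60 to 14.79 in LR7. Between HR and LR at day 3, 0 markers were called, while 12 of 12 stromal probe sets had higher values in HR (median log2 difference 0.69). At day 7, 3 of 4 probe sets of basal or squamous epithelium were called higher in HR (KRT15 by 2.82 and 3.08, COL17A1 by 2.27), and their sums, given above, did not overlap between HR7 and LR7. These probe sets, too, could pass the limit on low signal through the groups in which they were high. No marker of these lists was at 0 on any array, and the part of any of these cells in the values of the carriers was not tested.

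The 20 carrier probe sets that were too low to test, and the 2 that failed both limits, are values with little weight. They include the only probe sets of 11 genes, among them the ornithine carrier SLC25A15, and 7 of their values on single arrays were 0, all in SLC25A. Group means differed between the days by -1.42 to 0.95 in HR and by -0.81 to 1.49 in LR in SLC25A, and by -0.61 to 0.50 and -0.27 to 0.61 in SLC35. SLC25A40, linked to glutathione transport into mitochondria, went from 5.56, 5.63 and 5.04 in LR3 to 6.38, 6.70 and 5.72 in LR7. When every probe set was tested without either limit, 8 of 64 carriers were called in HR (11.2% of all) and 13 of 64 in LR (11.4% of all). SLC25A40 was among those of LR, with a rise of 0.86 (adjusted p = 0.0443), and was chosen for mention after its value was seen.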

How the data were processed

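Endometrial cytobrush biopsies of HR and LR heifers at days 3 and 7 were pooled (5 biopsies for each of 12 arrays, 3 arrays in each group). The authors scaled the arrays in GCOS 1.1.1 and made PLIER signals in Expression Console, deposited on the log2 scale (0 to 14.07). These values were used as deposited, and 286 to 403 probe sets on each array were at 0. Detection calls were not used here. Precision is limited by the number of arrays. Of 24016 probe sets without the 112 controls, 18101 had a standard deviation of at least 0.2, the limit in the study's methods, 12277 lay above the array median on every array of at least 1 group, and 7339 met both limits and were tested.

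Gene symbols came from the platform annotation (13292 probe sets with 1 symbol, 86 with several, 10638 with none), and all 64 carrier symbols matched RefSeq. Probe sets of 1 gene were kept apart. A linear model with 1 mean per group, over all 12 arrays, was fitted with limma 3.58.1 (R 4.3.3), with 95% intervals from the same fit and Benjamini-Hochberg adjustment over the 7339 probe sets within each comparison. The procedure was tested on simulated data. Tables and plots were made in Python 3.11.15 (pandas 2.3.3, numpy 2.4.6, matplotlib 3.10.9). The pools of a group hold different biopsies, and p-values measure the spread between pools.

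Named carriers were, for each comparison, family and direction, up to 6 with the largest difference among those called whose groups do not overlap, or the 2 with the lowest p where none was called. The ADP/ATP, phosphate, carnitine, aspartate/glutamate, citrate and oxoglutarate carriers, the mitoferrins and SLC35A1, A2, A3, B1, B2, C1 and D1 were named whatever their values. Up to 3 called genes were named for each list and group, with PAPSS1 in addition. The members and all lists were chosen with earlier results of these data known. Alternatives were other filters, centring, quantile normalization, an intensity trend, an ordinary linear model, the compared groups alone, the dap signal as covariate, a replicate block and leaving out each pool.

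Groups share pool numbers 1 to 3 in the labels, without a stated pairing. Residuals of same-numbered pools correlated at 0.198, 0.211 and 0.463 between LR3 and LR7 and at 0.136, 0.147 and 0.445 between HR7 and LR7, but at 0.118, 0.003 and -0.06 between HR3 and HR7 and at -0.082, -0.03 and -0.47 between HR3 and LR3.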

Additional observations from a re-analysis of the deposited data

How the results depend on the processing

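The fit with the replicate number as a block gave 12 called carriers in HR and 16 in LR, as without it, and changed no call of a carrier (SLC25A20 set 1, for example, stayed at -0.41 in HR with an adjusted p of 0.0819). With 1 pool left out at a time, the SLC25A count ranged from 4 to 9 in HR and from 10 to 13 in LR, and the SLC35 count from 2 to 3 in HR and from 2 to 4 in LR. Its lowest SLC25A values in HR were 5 without pool 1 of HR3 and 4 without pool 2 of HR7. The median SLC25A difference ranged from 0.10 to 0.18 in HR and from 0.00 to 0.23 in LR, with 0.00 reached without pool 3 of LR3, and the median SLC35 difference from 0.36 to 0.44 in HR and from 0.35 to 0.53 in LR. Between HR and LR the medians ranged from -0.04 to 0.07 (SLC25A) and 0.06 to 0.18 (SLC35) at day 3, and from -0.09 to 0.00 and 0.02 to 0.12 at day 7. For the interaction they ranged from -0.17 to -0.04 and from -0.09 to 0.06. The counts of 0 between HR and LR and for the interaction were 0 in each of these fits.

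Without the limit on low signal, the SLC25A count in HR was 4 in place of 9, and the SLC25A medians were 0.03 in HR and 0.02 in LR. Without both limits that count was 5, and the SLC25A median in LR was 0.02. The SLC35 median in HR was 0.07 without the limit on the standard deviation and 0.07 without both limits. In LR it was 0.16 without the limit on low signal, 0.13 without that on the standard deviation and 0.05 without both, in place of 0.42. These settings add steady or dim probe sets to the families. In an ordinary linear model at an unadjusted p under 0.05, 2 SLC25A probe sets differed between HR and LR at day 3. With the compared groups alone, 11 of 24 carriers and 1957 of 7339 probe sets (26.7%) were called in LR, in place of 16 and 3280, and in HR 14 of 24 and 3440. That fit could not be made for the interaction.

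With the dap signal as a covariate, the counts in LR were 0 for SLC25A and 0 for SLC35, and the SLC25A median of the interaction was -0.01 in place of -0.13. The cause was not tested. Some values that were not called changed sign. With the dap covariate these were SLC25A12 in LR (-0.31), SLC25A20 set 1 (0.04) and SLC35D2 (0.04) between HR and LR at day 3, and SLC25A33 set 2 for the interaction (0.06). With 1 pool left out they were SLC25A16 in HR (-0.03 to 0.25, lowest without pool 3 of HR3) and in LR (-0.46 to 0.00, highest without pool 1 of LR7), SLC25A25 in LR (-0.03 to 0.37, lowest without pool 3 of LR3), SLC35D2 at day 3 (-0.20 to 0.02, highest without pool 1 of LR3), SLC25A29 at day 7 (-0.37 to 0.03, highest without pool 3 of HR7) and SLC35A2 for the interaction (-0.03 without pool 1 of HR7, and -0.01 without pool 2 or 3 of LR7). No called value changed sign. With 3 pools in a group, the median standard error of a difference was 0.17 for SLC25A and 0.15 for SLC35, which limits what could be called between HR and LR.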
